A study of Homo sapiens with 6 samples.

Results

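The 10 genes described here encode receptors, bridging proteins and engulfment proteins for the uptake of apoptotic cells. They were taken by gene name from the table of 63241 gene rows, and each name matched 1 row. They are the TAM receptors MERTK, AXL and TYRO3, their ligands GAS6 and PROS1, the receptor LRP1, the bridging protein MFGE8, the engulfment proteins ELMO1 and DOCK1, and the transglutaminase TGM2. The RNA came from macrophages derived from THP-1 cells, taken 24 h after they received either an siRNA against DUSP6 (siDUSP6, labelled as DUSP6 knockdown, 3 libraries) or a negative control siRNA (siNC, labelled WT, 3 libraries). THP-1 is a human leukaemia line of the monocyte lineage that can be turned into macrophage-like cells, and DUSP6 is a phosphatase that inactivates ERK1 and ERK2. The question set by the design is which transcripts differ after DUSP6 silencing, and the series title names macrophage polarization through DUSP6 and ERK. The values are mRNA levels, and uptake of dying cells is not among the measurements used here.

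Dying cells expose phosphatidylserine on their surface. Macrophages bind it directly with receptors, or through soluble bridging proteins such as GAS6 and PROS1, which carry the dying cell to the TAM receptor tyrosine kinases. MFGE8 links phosphatidylserine to integrins instead. Receptor engagement turns on the GTPase RAC1 through ELMO and DOCK proteins, and actin then closes around the particle, a process called efferocytosis.

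DUSP6 itself measured 227, 218 and 222 TPM (a transcript's share of its library, scaled by gene length) in siDUSP6 replicates 1, 2 and 3, against 359, 368 and 378 TPM in siNC replicates 1, 2 and 3 (log2 fold change -0.73, SE 0.0267, limma adjusted p = 8.667e-05). Under treatment, siDUSP6 replicate 2 is listed with DUSP7 siRNA and replicate 3 with DUSP8 siRNA, whereas title, library name and genotype name DUSP6 for all 3. DUSP7 stood at 37.2 to 39.6 TPM in siDUSP6, against 47.1 to 50.05 TPM in siNC, and DUSP8 at 1.51 to 1.62 TPM in siDUSP6, against 1.40 to 2.11 TPM in siNC, so the libraries with the other names did not stand apart from replicate 1 in either gene. DUSP7 was called lower (log2 fold change -0.33, limma adjusted p = 0.0111). Among the fits with more than 1 library per group, that call was lost without siNC replicate 1, without siNC replicate 2 and without the variance trend. With siDUSP6 replicate 1 alone against siNC, the log2 fold change of DUSP7 was -0.30. The call was not kept in that fit either. Of 11 macrophage markers 10 had a mean of at least 1 TPM; CD68 measured 233 to 243 TPM in siDUSP6 and 226 to 236 TPM in siNC, CSF1R 291 to 294 TPM in siDUSP6 and 294 to 312 TPM in siNC, SPI1 203 to 211 TPM in siDUSP6 and 204 to 213 TPM in siNC, and ITGAM 26.7 to 27.2 TPM in siDUSP6 and 28.4 to 34.3 TPM in siNC. The summed marker level was 1184 to 1187 TPM in siDUSP6 and 1132 to 1167 TPM in siNC, with CD14 and MSR1 called higher; its part in the results below was not tested. Of the T cell markers 4 of 5 were at 0 in every library, and the epithelial list reached at most 0.29 TPM in sum. Of the B cell markers 4 of 5 averaged 1 TPM or more, with MS4A1 at 0 and a sum of 7.50 to 9.04 TPM in siDUSP6 and 5.71 to 8.24 TPM in siNC. The stromal markers summed to 5.24 to 6.19 TPM in siDUSP6 and 4.94 to 7.75 TPM in siNC, with COL3A1 and LUM at 0, the endothelial markers to at most 1.51 TPM in any library, and the promyelocytic markers to 16.7 to 19.4 TPM in siDUSP6 and 18.4 to 21.3 TPM in siNC. No gene of these lists was called, and their part in the results was not tested. In bulk samples fewer cells with a transcript and less transcript per cell cannot be told apart.

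Among the 9 uptake genes that could be tested, MERTK fell and no other passed the threshold. The test was limma on log2(TPM + 1) over all 14602 genes that averaged 1 TPM or more, with a call at an adjusted p under 0.05. Of the 9 genes 0 were called higher and 1 lower, while 3.86% of all tested genes were called, 2.37% higher and 1.49% lower. At an unadjusted p under 0.05 there were 3, MERTK, AXL and TYRO3, beside 2808 of all 14602 tested genes. The median log2 fold change of the 9 genes was 0.06, and that of all tested genes was -0.0254. No overlap between groups was seen in 4 of the 9 genes, MERTK, AXL, TYRO3 and LRP1, against 25.1% of all tested genes. None of these counts is read as particular to these genes.

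**Figure D1:**
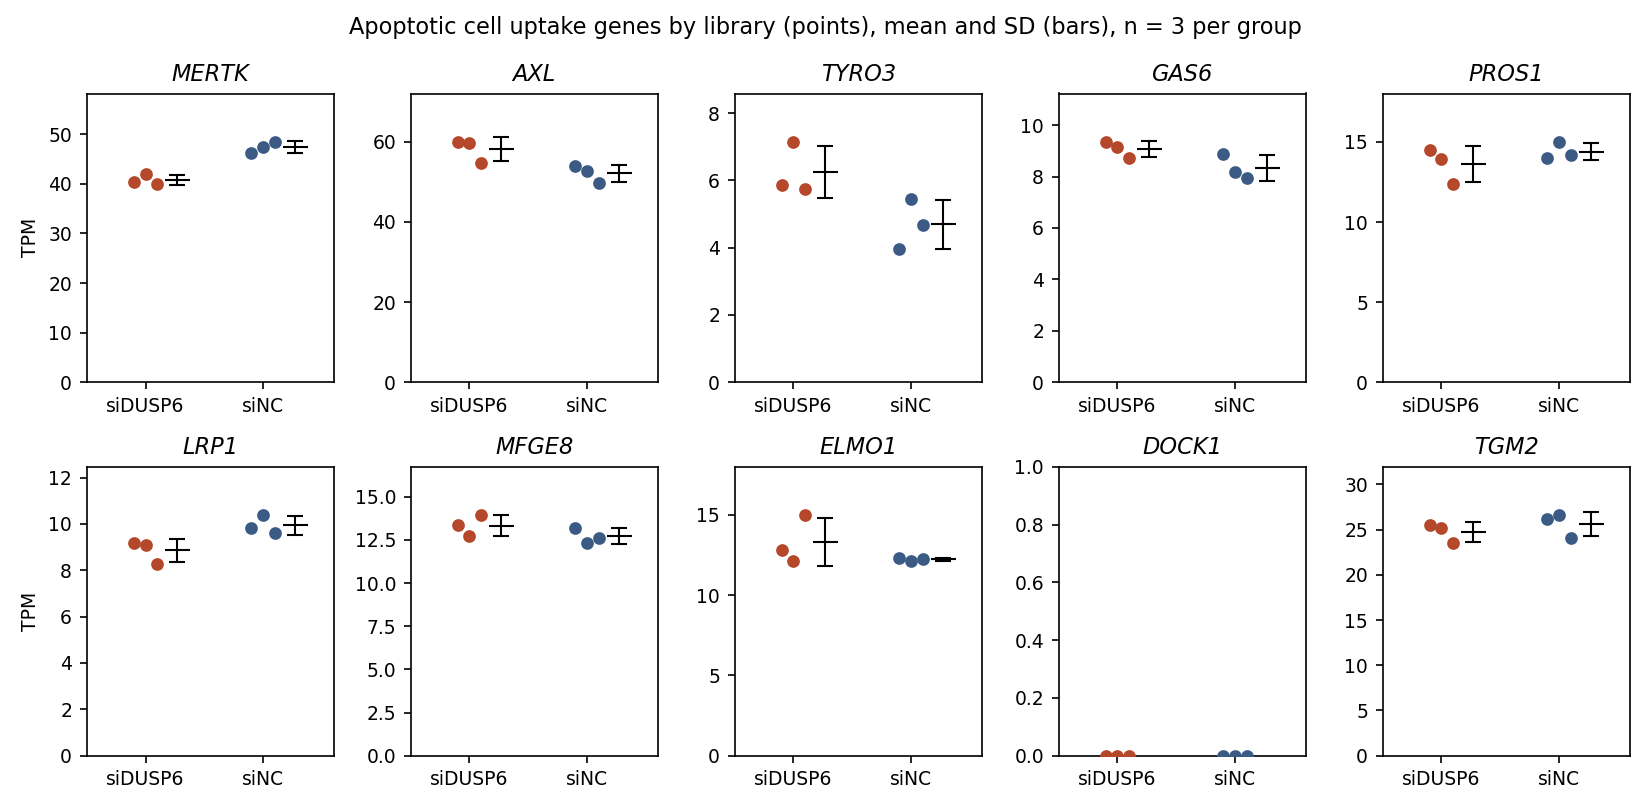
TPM of each of the 10 uptake genes (vertical axes, from 0), with 1 point per library for siDUSP6 (left) and siNC (right); the cross bar and whiskers are the mean and SD of 3 libraries, and DOCK1 is listed at 0 throughout. The MERTK points lie at 39.9 to 42.0 TPM in siDUSP6, below all siNC points at 46.2 to 48.5 TPM, whereas the AXL and TYRO3 points of siDUSP6 lie above those of siNC.

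MERTK (ENSG00000153208, chr2:111898479-112029561, plus strand; all gene positions are from GENCODE on GRCh38) is a receptor tyrosine kinase by which macrophages take up apoptotic cells. It measured 40.4, 42.0 and 39.9 TPM in siDUSP6 replicates 1, 2 and 3, against 46.2, 47.4 and 48.5 TPM in siNC replicates 1, 2 and 3. All 3 siDUSP6 libraries lay below all 3 siNC libraries, and the spread within each group was small beside the gap. The mean was 40.8 ± 1.08 TPM in siDUSP6 and 47.4 ± 1.19 TPM in siNC (SD, n = 3 each), a difference of -13.9%. The log2 fold change was -0.21 (SE 0.0375, 95% interval -0.30 to -0.12, limma adjusted p = 0.03279). The call was lost when any 1 of the 6 libraries was left out, with limma adjusted p values of 0.06433 to 0.1097, while the log2 fold change stayed between -0.23 and -0.19. Over the 17 alternatives the call was kept in 7, with limma adjusted p values from 0.02182 to 0.2607, and the fold change was negative in each. With only siDUSP6 replicate 1, the library whose labels all name DUSP6, set against siNC, the log2 fold change was -0.22 (limma adjusted p = 0.2607, the lone library being assumed to vary like siNC).

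AXL (ENSG00000167601, chr19:41219203-41261766, plus strand), the TAM receptor that binds GAS6 with high affinity, had 60.1, 59.7 and 54.7 TPM in siDUSP6 replicates 1, 2 and 3, against 53.9, 52.8 and 49.7 TPM in siNC replicates 1, 2 and 3. The groups did not overlap, but siDUSP6 replicate 3 lay within 1 TPM of siNC replicate 1. The mean was 58.2 ± 2.99 TPM in siDUSP6 and 52.1 ± 2.2 TPM in siNC, and the log2 fold change of 0.16 did not pass the test (SE 0.0506, 95% interval 0.03 to 0.28, limma adjusted p = 0.162). TYRO3 (ENSG00000092445, chr15:41557675-41583586, plus strand), the least abundant of the 3 TAM receptors here, had 5.85, 7.15 and 5.74 TPM in siDUSP6 replicates 1, 2 and 3, against 3.97, 5.43 and 4.66 TPM in siNC replicates 1, 2 and 3. Its groups also did not overlap, and its log2 fold change of 0.35 did not pass either (SE 0.126, 95% interval 0.05 to 0.65, limma adjusted p = 0.1959). An antisense transcript, AC011510.1, shares 67 of the 5154 exon bases of AXL and was listed at 0 in siDUSP6, against 0, 1.70 and 1.88 TPM in siNC. Neither receptor passed in any of the 17 alternatives, with limma adjusted p values down to 0.09682 for AXL and 0.1599 for TYRO3.

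**Figure D2:**
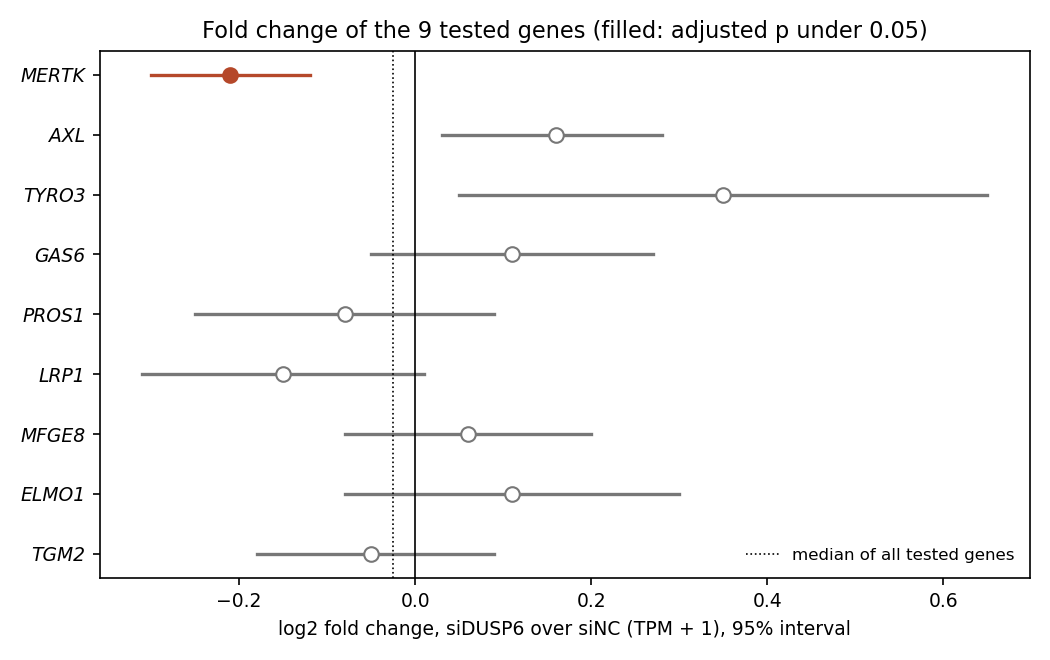
Log2 fold change of siDUSP6 over siNC for the 9 tested genes (points, horizontal axis), with 95% intervals from limma (lines) and the median of all tested genes (dotted line). MERTK at -0.21 is the filled point, called at an adjusted p under 0.05, and the open points, including AXL at 0.16 and TYRO3 at 0.35, were not called.

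The make-up of the TAM receptor transcripts differed between the groups while their sum differed little. MERTK, AXL and TYRO3 together came to 106, 109 and 100.4 TPM in siDUSP6 replicates 1, 2 and 3, against 104, 106 and 103 TPM in siNC replicates 1, 2 and 3. The siNC sums lie within the range of the siDUSP6 sums. MERTK made up 38.0%, 38.6% and 39.8% of that sum in siDUSP6, against 44.4%, 44.9% and 47.2% in siNC. AXL made up 54.5% to 56.5% in siDUSP6, against 48.3% to 51.8% in siNC, and TYRO3 5.5% to 6.6% in siDUSP6, against 3.8% to 5.1% in siNC. The share of MERTK was thus lower in every siDUSP6 library than in every siNC library, and those of AXL and TYRO3 were higher. The shares are parts of 1 sum, so a lower share of MERTK means a higher share of the others together. They restate the TPM values above and were not tested.

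A ratio of 2 genes within a library does not change with the scaling of that library. For each AXL transcript there were 0.673, 0.703 and 0.730 MERTK transcripts in siDUSP6 replicates 1, 2 and 3, against 0.856, 0.898 and 0.977 in siNC replicates 1, 2 and 3. The log2 ratio averaged -0.51 ± 0.0589 in siDUSP6 and -0.14 ± 0.0964 in siNC (SD, n = 3 each), a difference of -0.37. The ratio of MERTK to TYRO3 was 5.87 to 6.96 in siDUSP6, against 8.73 to 11.6 in siNC, a log2 difference of -0.64. For both ratios the groups did not overlap. This follows from the single genes, as MERTK was lower and AXL and TYRO3 were higher in every siDUSP6 library. The two-sided exact permutation test gave p = 0.1 for each, also when adjusted over the 3 ratios computed. That is the smallest p that 3 against 3 libraries allow. This design therefore cannot reach 0.05 with that test.

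**Figure D3:**
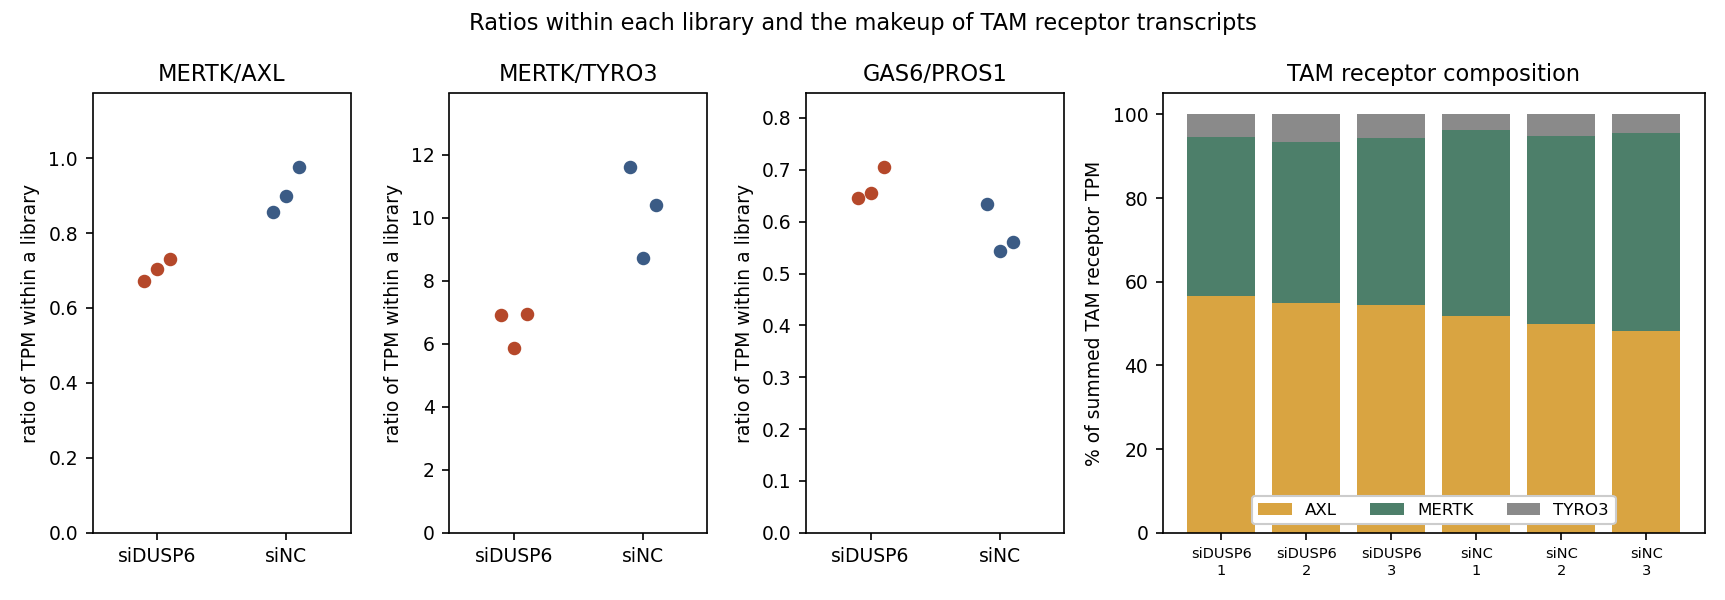
The 3 panels at the left give ratios of TPM within each library (points, axes from 0) for siDUSP6 and siNC, and the panel at the right gives the percentage of the summed MERTK, AXL and TYRO3 TPM held by each receptor in each library. MERTK/AXL is 0.673 to 0.730 in siDUSP6 and 0.856 to 0.977 in siNC, and GAS6/PROS1 is 0.645 to 0.706 in siDUSP6 and 0.543 to 0.634 in siNC.

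The promoters of MERTK and AXL are shown because these are the abundant TAM receptors whose ratio separated the groups. Each is the strand of the gene from RefSeq (GRCh38.p14), 250 bases before to 50 bases after a listed start, at chr2:111898357-111898656 on the plus strand for MERTK and chr19:41218973-41219272 on the plus strand for AXL; for AXL, which has 2 listed promoters, it is the one nearest the gene's start in GENCODE. Capitals mark the GC box GGGCGG on either strand, a motif bound by SP family factors.
MERTK: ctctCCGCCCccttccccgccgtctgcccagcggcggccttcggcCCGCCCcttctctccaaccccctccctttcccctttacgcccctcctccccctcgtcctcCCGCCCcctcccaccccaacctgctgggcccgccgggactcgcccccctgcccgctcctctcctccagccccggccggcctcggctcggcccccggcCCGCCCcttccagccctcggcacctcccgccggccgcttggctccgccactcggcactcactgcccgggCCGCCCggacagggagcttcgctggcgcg
AXL: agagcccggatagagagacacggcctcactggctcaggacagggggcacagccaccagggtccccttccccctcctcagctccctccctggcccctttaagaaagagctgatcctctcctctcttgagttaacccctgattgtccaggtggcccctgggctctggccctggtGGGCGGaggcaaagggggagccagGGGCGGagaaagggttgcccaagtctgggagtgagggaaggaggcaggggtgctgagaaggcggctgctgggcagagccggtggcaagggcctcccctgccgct
The MERTK window holds 5 matches and is 78.3% G or C, and the AXL window holds 2 matches and is 66.0% G or C. Of all 35116 listed promoters 45% hold at least 1 GC box. Motifs of 2 factor families downstream of ERK were searched on both strands too, the AP-1 motif TGANTCA, which 7.71% of all promoters hold, and the ETS motif CCGGAAGT, which 4.14% hold. Neither sequence is found in the windows of MERTK or AXL. Of the 15 listed promoters of the uptake genes 1, of TYRO3, holds the AP-1 motif and 0 hold the ETS motif, while 10 hold a GC box. These matches describe the letters in the windows and are not measured binding sites. All 10 genes but TGM2 had listed promoters.

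The ligands of the TAM receptors did not pass the test. GAS6 (ENSG00000183087, chr13:113820549-113864067, minus strand), which binds all 3 TAM receptors, had 9.36, 9.14 and 8.73 TPM in siDUSP6 replicates 1, 2 and 3, against 8.89, 8.16 and 7.93 TPM in siNC replicates 1, 2 and 3 (log2 fold change 0.11, 95% interval -0.05 to 0.27, limma adjusted p = 0.4326). PROS1 (ENSG00000184500, chr3:93873033-93980003, minus strand) encodes protein S, a blood anticoagulant that also binds MERTK and TYRO3. It had 14.5, 13.95 and 12.4 TPM in siDUSP6 replicates 1, 2 and 3, against 14.0, 15.0 and 14.2 TPM in siNC replicates 1, 2 and 3 (log2 fold change -0.08, 95% interval -0.25 to 0.09, limma adjusted p = 0.6088). Each gene's groups overlapped. The ratio of GAS6 to PROS1 within a library was 0.645, 0.655 and 0.706 in siDUSP6, against 0.634, 0.543 and 0.560 in siNC, so these groups did not overlap (log2 difference 0.21, exact permutation p = 0.1, the smallest possible). An antisense gene, GAS6-AS1, shares 421 of the 6006 exon bases of GAS6 and measured 0.97 to 1.47 TPM in siDUSP6 and 1.26 to 1.56 TPM in siNC; whether counting used strand is not given, so reads of this stretch cannot be assigned.

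MFGE8 (ENSG00000140545, chr15:88898683-88913411, minus strand), which bridges phosphatidylserine and the integrins that contain ITGAV, had 13.3, 12.7 and 13.9 TPM in siDUSP6 replicates 1, 2 and 3, against 13.2, 12.35 and 12.6 TPM in siNC replicates 1, 2 and 3. The groups overlapped, and the log2 fold change was 0.06 (95% interval -0.08 to 0.20, limma adjusted p = 0.6239). LRP1 (ENSG00000123384, chr12:57128493-57213351, plus strand), a large endocytic receptor that also takes up apoptotic cells marked by calreticulin, had 9.19, 9.11 and 8.28 TPM in siDUSP6 replicates 1, 2 and 3, against 9.82, 10.4 and 9.60 TPM in siNC replicates 1, 2 and 3. All siDUSP6 values lay below all siNC values, but the log2 fold change of -0.15 did not pass (SE 0.0671, 95% interval -0.31 to 0.01, limma adjusted p = 0.2904). LRP1 overlaps STAT6 on the opposite strand by 59 of its 20839 exon bases, and STAT6 is far more abundant, at 176 to 187 TPM in siDUSP6 and 177 to 191 TPM in siNC.

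ELMO1 and DOCK1 together form an exchange factor that activates RAC1 during engulfment. ELMO1 (ENSG00000155849, chr7:36854361-37449249, minus strand) had 12.8, 12.2 and 15.0 TPM in siDUSP6 replicates 1, 2 and 3, against 12.3, 12.1 and 12.25 TPM in siNC replicates 1, 2 and 3. Replicate 3 of siDUSP6 stood above the others, the groups overlapped, and the log2 fold change of 0.11 (95% interval -0.08 to 0.30, limma adjusted p = 0.5227) was 0.03 without that library. DOCK1 (ENSG00000150760, chr10:126905409-127452517, plus strand) was listed at 0 in each of the 6 libraries and was not tested. An exact 0 can be a failed estimate, and from TPM it cannot be told apart from an absent transcript. Among 185 ribosomal, proteasome and other housekeeping gene rows 2 were at 0 throughout, PSMA8 and RPL10L, both known from testis. Of other ELMO and DOCK genes, DOCK2, the exchange factor of blood cells, stood at 36.25 ± 0.333 TPM in siDUSP6 and 35.3 ± 0.552 TPM in siNC, and ELMO2 at 108 ± 1.85 TPM in siDUSP6 and 114.5 ± 2.33 TPM in siNC, neither called (limma adjusted p = 0.6141 and 0.1901). These 2 genes are named after their values were seen.

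TGM2 (ENSG00000198959, chr20:38127387-38166578, minus strand), tissue transglutaminase, acts with integrin beta 3 and MFGE8 in the uptake of apoptotic cells by mouse macrophages. It had 25.5, 25.2 and 23.5 TPM in siDUSP6 replicates 1, 2 and 3, against 26.2, 26.6 and 24.1 TPM in siNC replicates 1, 2 and 3. The groups overlapped (log2 fold change -0.05, 95% interval -0.18 to 0.09, limma adjusted p = 0.6957). TGM2 shares 394 of its 8036 exon bases with RPRD1B on the opposite strand, which measured 20.7 to 24.6 TPM in siDUSP6 and 23.2 to 26.2 TPM in siNC.

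By level per length, the order in siDUSP6 was AXL, MERTK, TGM2, PROS1, MFGE8, ELMO1, GAS6, LRP1, TYRO3 and DOCK1. Values of the neighbours PROS1 and MFGE8, MFGE8 and ELMO1, and GAS6 and LRP1 overlapped there. In siNC the order was the same except that LRP1 stood above GAS6, and no neighbours overlapped, although AXL at 49.7 to 53.9 TPM and MERTK at 46.2 to 48.5 TPM lay close together. In siDUSP6 the gap between these 2 receptors was wider, with AXL at 54.7 to 60.1 TPM and MERTK at 39.9 to 42.0 TPM. AXL ranked above 82.0% of the tested genes by mean TPM, MERTK above 78.0% and TYRO3 above 31.8%.

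The genes whose pattern over the 6 libraries was closest to that of MERTK, by the root mean square difference of centred log2(TPM + 1) among 9847 other genes with a symbol and a mean of at least 5 TPM, were KCNJ2, JPT2 and CBX5. Their differences from MERTK were 0.0195, 0.0202 and 0.0210 on the log2 scale. KCNJ2, an inward rectifier potassium channel, had 9.93 to 10.5 TPM in siDUSP6, against 11.7 to 12.4 TPM in siNC. CBX5, a heterochromatin protein, had 30.7 to 32.4 TPM in siDUSP6, against 36.5 to 36.95 TPM in siNC, and JPT2 37.5 to 39.3 TPM in siDUSP6, against 44.2 to 47.0 TPM in siNC. KCNJ2 was not called (limma adjusted p = 0.1026). JPT2 and CBX5 were called lower (limma adjusted p = 0.02707 and 0.02947), and both calls were lost in each of the 6 fits without 1 library. This likeness is a description over 6 libraries.

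Elsewhere in the uptake pathway, more listed genes were called higher than lower, as over all tested genes (346 higher, 218 lower). The 8 lists of further pathway genes name 133 genes, of which 107 were tested. Of these, 14 were called higher and 4 lower, 16.8% in all beside 3.86% of all tested genes. The lists were chosen with earlier results of these data known and were only counted. The larger share is therefore not read as particular to the pathway. The log2 fold change was positive in 57 and negative in 50, with a median of 0.01. For the lists below, rose and fell mean called higher and called lower. Of the 18 calls 8 were kept in each of the 6 fits without 1 library, among them those of ANXA1, ANXA5, LGALS3, RAC1, TIMP3, PLSCR1 and RAB7A. Without the variance trend 2 were kept, PLSCR1 among them.

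**Figure D4:**
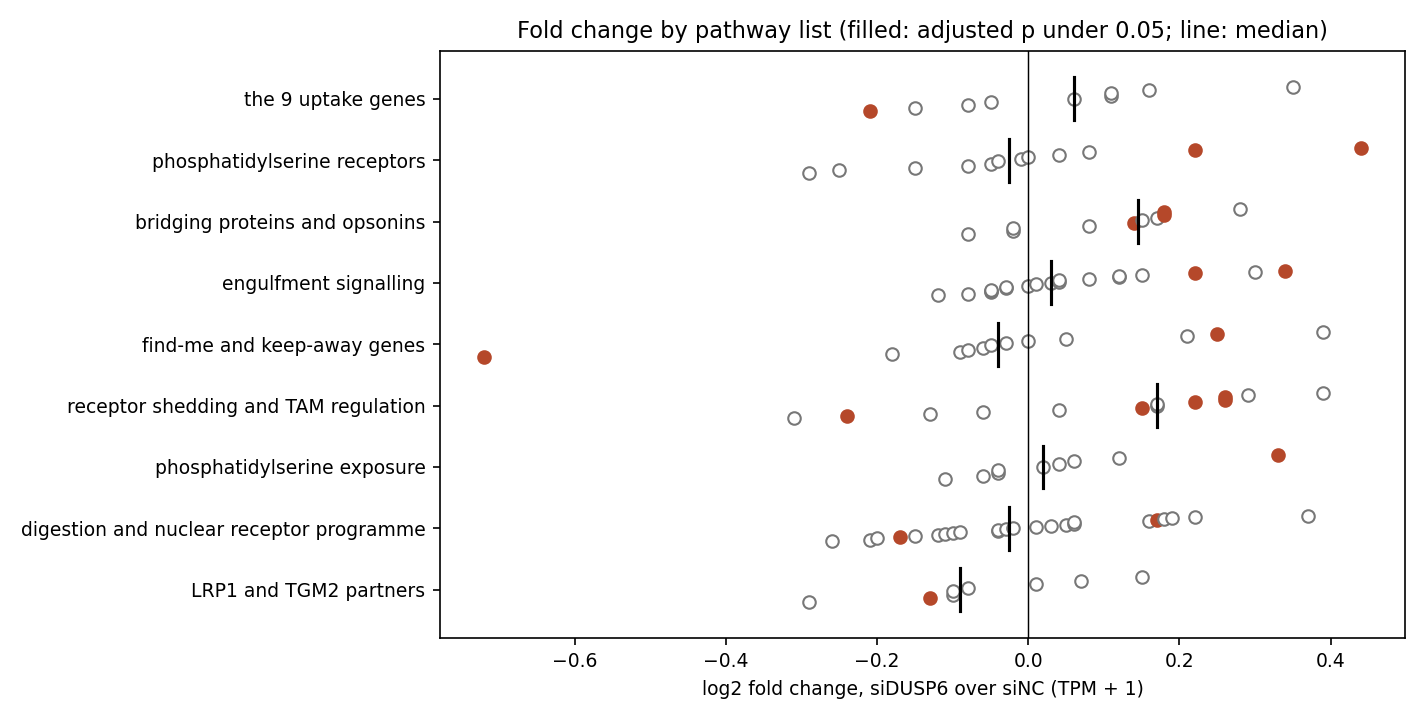
Log2 fold change of siDUSP6 over siNC (horizontal axis) for the 9 tested uptake genes and for the tested genes of 8 further pathway lists, 1 point per gene, with filled points for genes called at an adjusted p under 0.05 and a line at each list's median. The filled points lie mostly to the right of 0, with MERTK, CX3CR1, CBL, RAB7A and A2M to the left.

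Among other bridging proteins 3 of 10 tested genes rose and 0 fell, with a median log2 fold change of 0.14. ANXA5, an annexin that binds phosphatidylserine, had 1153, 1134 and 1102 TPM in siDUSP6, against 997, 998 and 1003 TPM in siNC (log2 fold change 0.18, limma adjusted p = 0.005267). ANXA1, another annexin, averaged 374 ± 6.33 TPM in siDUSP6 and 330.4 ± 5.31 TPM in siNC, and LGALS3, galectin-3, 500.4 ± 0.449 TPM in siDUSP6 and 454 ± 5.93 TPM in siNC. Among other phosphatidylserine receptors 2 of 12 rose and 0 fell, with a median of -0.02. ITGB3, the integrin beta 3 chain, averaged 79.6 ± 2.69 TPM in siDUSP6 and 68.2 ± 2.74 TPM in siNC, a call lost without any 1 of the 6 libraries (limma adjusted p up to 0.2611 over all alternatives). CD14, a lipopolysaccharide co-receptor that also tethers apoptotic cells, averaged 40.8 ± 1.18 TPM in siDUSP6 and 29.9 ± 3.26 TPM in siNC, and kept its call in 1 of those 6 fits (up to 0.3481).

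Of 19 tested engulfment signalling genes 2 rose and 0 fell, with a median of 0.03. RAC1, the GTPase that ELMO and DOCK proteins activate, had 200.1, 205 and 197 TPM in siDUSP6, against 170, 175 and 172 TPM in siNC, with no overlap (log2 fold change 0.22, SE 0.0252, limma adjusted p = 0.006773). DOCK4, an exchange factor for small GTPases, averaged 10.05 ± 0.616 TPM in siDUSP6 and 7.72 ± 0.311 TPM in siNC, a call lost in each fit without 1 library (limma adjusted p up to 0.3476 over all alternatives). Among genes of attraction and keep-away signals 1 rose and 1 fell of 12, with a median of -0.04. CX3CR1, the fractalkine receptor, had 3.55, 3.17 and 2.58 TPM in siDUSP6, against 5.55, 5.28 and 6.32 TPM in siNC, and PANX1, a channel that releases nucleotides, averaged 47.9 ± 2.14 TPM in siDUSP6 and 39.97 ± 0.712 TPM in siNC. Each kept its call in 1 of the 6 fits without 1 library, with limma adjusted p up to 0.2689 for CX3CR1 and 0.1711 for PANX1 over all alternatives.

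Among genes of receptor shedding and TAM regulation 4 of 13 rose and 1 fell, with a median of 0.17. TIMP3, an inhibitor of the sheddase ADAM17, averaged 237 ± 3.91 TPM in siDUSP6 and 203 ± 5.02 TPM in siNC. ADAM17 itself, which cleaves MERTK from the cell surface, averaged 146 ± 4.21 TPM in siDUSP6 and 152 ± 1.41 TPM in siNC and did not pass (limma adjusted p = 0.2771); it is named after its values were seen. The ubiquitin ligases went opposite ways, with CBLB at 55.3 ± 2 TPM in siDUSP6 and 46.2 ± 1.87 TPM in siNC, and CBL at 52.7 ± 1.47 TPM in siDUSP6 and 62.4 ± 0.429 TPM in siNC; each kept its call in 1 of the 6 fits without 1 library (over all alternatives the limma adjusted p reached 0.2403 for CBLB and 0.1843 for CBL).

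Of 9 genes of phosphatidylserine exposure 1 rose, PLSCR1, a phospholipid scramblase family member, at 264.5 ± 5.43 TPM in siDUSP6 and 210 ± 3.75 TPM in siNC (log2 fold change 0.33, limma adjusted p = 0.001401). Of 24 genes of digestion and nuclear receptors 1 rose and 1 fell, with a median of -0.03. RAB7A, a GTPase of late endosomes and phagosomes, averaged 297 ± 4.68 TPM in siDUSP6 and 335 ± 1.68 TPM in siNC, and RXRB, a retinoid X receptor, 47.65 ± 0.24 TPM in siDUSP6 and 42.3 ± 0.462 TPM in siNC, and the RXRB call was lost in each fit without 1 library (limma adjusted p up to 0.3047). Of 8 partners and relatives of LRP1 and TGM2 1 fell and 0 rose, with a median of -0.09; A2M, a protease inhibitor cleared through LRP1, averaged 360.4 ± 4.51 TPM in siDUSP6 and 395 ± 3.65 TPM in siNC, a call kept in 2 of those 6 fits (limma adjusted p up to 0.2459).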

How the data were processed

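Per the labels' protocols, the libraries were built from poly(A) RNA with a kit that marks strand. The authors deposited 1 table of TPM (transcript levels scaled by gene length and library total), whose values keep no sequencing depth, so no counting error can be given. Fastp, HISAT2, StringTie and GRCh38 appear in the submitters' processing notes, with no versions. For the annotation and the strand setting nothing is given in the sources used here. Leaving out 21 rows without a gene ID gave 63241 gene rows. Coordinates came from GENCODE release 29 (GRCh38).

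Log2(TPM + 1) was fitted by limma 3.58.1, run in R 4.3.3, on group alone with a variance trend, over genes averaging 1 TPM or more, with Benjamini-Hochberg adjustment over all of them and calls at an adjusted p under 0.05, all two-sided. Fold changes on this scale understate those of low genes. Ratios and tables were computed in Python 3.11.15 with scipy 1.17.1, pandas 2.3.3 and numpy 2.4.6. The fit was tested on simulated data with planted changes. Alternatives were other pseudocounts (0.1 and 5), filters (none, or a mean of at least 5 TPM), normalizations and variance models, a replicate block, each library left out in turn and, chosen after seeing the data, siDUSP6 replicate 1 alone against siNC.

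The members and lists were chosen with earlier results of these data known. Named were all members, DUSP6, DUSP7 and DUSP8, 5 macrophage markers, in each pathway list up to 4 called genes with the largest change, and the 3 genes closest in pattern to each called member. Some called list genes are counted but not reported here by name. The labels do not state separate cultures for the libraries. The p-values therefore cover the spread among these libraries alone, and that spread may be technical.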

Additional observations from a re-analysis of the deposited data

How the results depend on the processing

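The directions of the 9 tested uptake genes were kept under every alternative run, except that PROS1 measured 0.0118 on the log2 scale when siDUSP6 replicate 1 alone was set against siNC. The number of uptake genes called was 1, that of MERTK, and it was 0 with no filter, without the variance trend, with the replicate number as a block, with siDUSP6 replicate 1 alone, and in each of the 6 fits without 1 library (0 to 0). In the list genes 18 calls became 11, 2, 3 and 0 in the same order, and 8 to 11 without 1 library. Over all genes 564 calls became 360, 124, 121 and 49, and 222 to 266 without 1 library. The cause of these losses was not tested. The fits without 1 library and with siDUSP6 replicate 1 alone had fewer libraries, and the fit with no filter tested more genes. The fits without the variance trend and with the replicate block kept all 6 libraries and the same 14602 genes. Higher genes made up 61.3% of all calls, and 74.5% after median-of-ratios scaling, 68.3% with no filter, 85.5% without the variance trend, 83.5% with the replicate block, 89.8% with siDUSP6 replicate 1 alone, 67.9% to 74.4% without 1 library, and 56.6% to 66.0% in the others. The 3 within-library ratios kept their direction in the 7 alternatives run for them, a pseudocount of 1 and each library left out.

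Same-numbered libraries did not deviate together (r across genes of 0.025, -0.037 and 0.048 for numbers 1, 2 and 3). Whether the samples were paired by number cannot be told from this, because a correlation over all genes can miss a pattern shared by some. With the replicate block MERTK had a limma adjusted p of 0.1225. Because TPM keep no depth, the precision of low genes such as TYRO3 could not be set from counts.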
